A study of Homo sapiens with 18 samples.

Results

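The human selenoproteins and the factors that make and insert selenocysteine were described in MM1R and MM1S myeloma cells before and after RSL3. The set was chosen by gene symbol and listed 33 genes, of which 25 encode selenoproteins (the selenophosphate synthetase SEPHS2 among them) and 8 encode other factors of selenocysteine synthesis and insertion or the selenoprotein P receptor LRP8. A gene was kept when it had 10 or more raw counts in at least 3 of the 18 libraries. This kept 26 of the 33 genes, 19 of the selenoproteins and 7 of the other factors, where 14403 of the 43735 genes in the count table met the same rule.

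MM1S and MM1R are sublines of the same human multiple myeloma line, the first sensitive to glucocorticoids and the second resistant, with little glucocorticoid receptor. Each line had untreated cells, cells exposed for 3 h to RSL3 at 5 µM, and cells that received ferrostatin-1 (Fer-1) at 2 µM 2 h ahead of the same RSL3 exposure, which made 6 groups of 3 RNA-seq libraries. The 3 replicates of a line were 3 cell passages (4, 6 and 7 for MM1R, and 16, 22 and 23 for MM1S), and each passage supplied a library of every treatment. The replicates of a line are passages of that line, so the p-values measure the spread between passages. Whether the passages came from a single continuous culture is not given in the sources used here, and the paper calls its replicates biologically independent. Cells given Fer-1 alone were not analysed here.

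Selenocysteine is the selenium analogue of cysteine and is inserted at an in-frame UGA codon that would otherwise end translation. SEPHS2 makes selenophosphate, PSTK phosphorylates the seryl group on the dedicated tRNA, and SEPSECS turns it into selenocysteine, after which SECISBP2 bound to a stem-loop in the 3′ untranslated region and the elongation factor EEFSEC bring the charged tRNA to the ribosome. GPX4, a selenoprotein that reduces phospholipid hydroperoxides in membranes, is the protein that RSL3 binds covalently to induce ferroptosis, and Fer-1 is a radical trap that stops lipid peroxidation.

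The recoded codons of the members on which the results turn are shown here, because they are the feature that the selenoproteins share. Each line is a stretch of the annotated coding sequence (GENCODE transcripts on hg19, 5′ to 3′ on the gene's strand), with the selenocysteine codon TGA in capitals; the shorter lines run to the end of the coding sequence, without its stop codon.
GPX4: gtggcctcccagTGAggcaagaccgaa
GPX1: gtggcgtccctcTGAggcaccacggtc
TXNRD1: caggctggctgcTGAggt
SELENOK: atggctggtggaTGAggaagg
SELENOS: tcatctggcggaTGAggc
DIO2: ggctcagccactTGAcctcctttcacg
SELENOT: atttgtgtttccTGAggttataggcgg
In the glutathione peroxidases the codon lies in the first part of the protein, at codon 73 of 197 in GPX4 (chr19:1105402-1105404, exon 3 of 7) and codon 49 of 203 in GPX1 (chr3:49395565-49395567, exon 1 of 2). In TXNRD1 it is codon 648 of 649 (chr12:104742191-104742193, in the last of 17 exons) and in SELENOS codon 188 of 189 (chr15:101812982-101812984, in the last of 6 exons). In SELENOK it is codon 92 of 94 (chr3:53919858-53919860, exon 4 of 5), and in SELENOT codon 49 of 195 (chr3:150340179-150340181, exon 2 of 6). DIO2 has 2 such codons, the first at codon 133 of 273 (chr14:80669455-80669457, in the last of 2 exons).

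The libraries held between 17635438 and 19368343 counts. Levels are read counts scaled to the library total and its TMM factor (CPM), and as in any bulk library fewer expressing cells and less RNA per cell cannot be told apart. The plasma cell markers SDC1, TNFRSF17, IRF4, XBP1, PRDM1, CD38, SLAMF7 and JCHAIN were all above 41.0 CPM in every library, while the T cell, B cell and monocyte genes CD3D, MS4A1, PAX5 and CD14 stayed at or below 0.455 CPM. The T cell gene CD3E had 3.26 to 11.5 CPM and the erythroid gene HBB 3.40 to 12.7. NR3C1, the glucocorticoid receptor gene, had 254 to 415 counts in 8 MM1R libraries against 1703 to 5962 in MM1S, but 966 counts in the MM1R library of Fer-1 and RSL3 replicate 2. Over 10 genes that otherwise marked MM1S, that library lay at a median of 49.3% of the way from the MM1R to the MM1S level. The other 17 libraries lay between -0.673% and 12.5% of the way from the level of their own line to that of the other. A negative value is a level below that of the library's own line. The highest of these 17 was replicate 1 of RSL3-treated MM1S cells, which also had the lowest TMM factor (0.864). The MM1R library with 966 NR3C1 counts is called the MM1S-like library here. Calls of members that change without this library or without MM1S RSL3 replicate 1 are given with and without it.

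The members spanned several orders of magnitude in untreated cells. Per kilobase of transcript, GPX4 had the highest level of the 26 genes in both lines, 343 ± 43.5 CPM per kb in MM1R and 252 ± 21.4 in MM1S (SD, n = 3). SELENOT, a thioredoxin-like protein of the endoplasmic reticulum (ER), followed with 136 ± 7.14 and 149 ± 23.9 CPM per kb, and SELENOF, an ER protein that binds the folding enzyme for glycoproteins, with 121 ± 10.1 and 135 ± 8.77. These ranges of SELENOT and SELENOF overlapped within each line. GPX1, the abundant peroxidase of the cytosol, ranked 4th in MM1R at 108 ± 29.4 CPM per kb but 18th in MM1S at 6.87 ± 10.4. SELENOS, SELENOH, TXNRD1 and SELENOK filled the next places in MM1R at 79.5, 71.0, 62.0 and 44.3 CPM per kb.

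**Figure D1:**
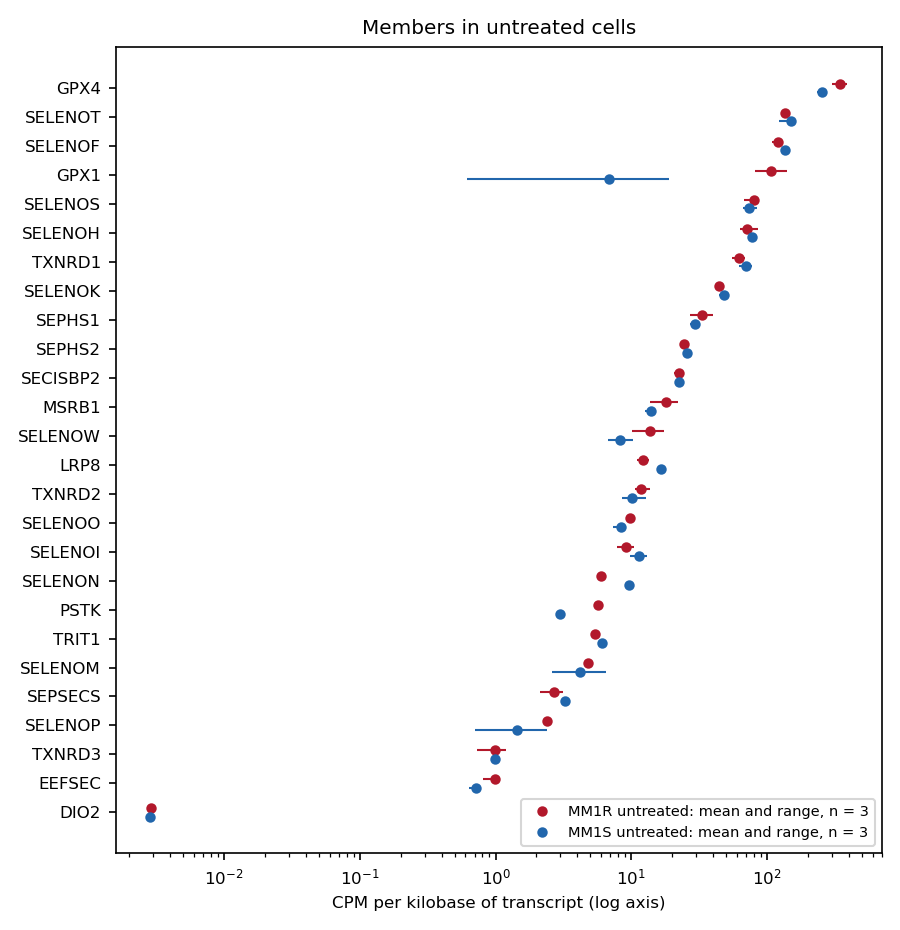
Level of the 26 members in untreated cells in CPM per kilobase of the canonical transcript (log axis); points are means of 3 libraries and lines run from the lowest to the highest library, with MM1R in red and MM1S in blue and no line where the lowest library was at 0. GPX4 stands highest in both lines, and GPX1 is the gene whose points lie furthest apart, at 108 CPM per kb in MM1R and 6.87 in MM1S.

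The insertion factors covered much of the range of the selenoproteins. SECISBP2 had 22.3 ± 1.57 CPM per kb in untreated MM1R cells and SEPHS2 24.4 ± 1.36, whereas PSTK had 5.66 ± 0.282, SEPSECS 2.70 ± 0.512 and EEFSEC 0.988 ± 0.162. TRIT1, which modifies the anticodon loop of the tRNA, had 5.38 ± 0.278 CPM per kb, and SEPHS1, a paralogue of SEPHS2 with no selenocysteine, had 33.2 ± 6.48. DIO2 was the lowest kept gene in both lines, with 1 count over the 3 untreated libraries of each line, and it met the rule through the treated libraries only. A test of DIO2 in treated against untreated cells is therefore decided by the filter on low counts, so its counts are described and it is left out of the counts of members called unless it is named.

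The 7 genes not kept were GPX2, GPX3, GPX6, DIO1, DIO3, SELENOV and SCLY. The gut peroxidase GPX2 had at most 7 counts in a library, the secreted peroxidase GPX3 at most 17, and the deiodinase DIO1 at most 3, while GPX6 and DIO3 had 0 in all 18 libraries and SELENOV 1 count in all. SCLY, the lyase that releases selenium from selenocysteine, had 12 counts in all, and 94.1% of its canonical transcript is shared on the same strand with the readthrough gene UBE2F-SCLY, which had 13, so a low count there does not show a low level of the mRNA.

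RSL3 against untreated cells asked which members responded within 3 h of GPX4 inhibition. Averaged over the lines, in the fit without the passage, 5 of the 25 members other than DIO2 were called higher and none lower. These were the thioredoxin reductase TXNRD1, the ER membrane proteins SELENOK and SELENOS, and the selenocysteine synthesis enzymes PSTK and SEPSECS. With the passage as a block, SEPHS1, SEPHS2 and TRIT1 were called lower and further members higher, as given below. Of all 14281 genes tested, 15.5% were called at a false discovery rate (FDR) under 0.05, 8.7% higher and 6.81% lower. The test was the quasi-likelihood test of edgeR with Benjamini-Hochberg adjustment over all genes, used for every FDR here. The median log2 fold change of the 25 members was 0.07 against 0.00 for all genes tested.

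TXNRD1 reduces thioredoxin in the cytosol. Its levels were 211, 243 and 264 CPM in untreated MM1R cells (replicates 1 to 3), 283, 424 and 462 after RSL3, and 407, 505 and 526 after Fer-1 and RSL3. In MM1S cells they were 240.1, 274 and 299 untreated, 422, 531 and 539 after RSL3, and 479.9, 558 and 529.6 after Fer-1 and RSL3. Every RSL3-treated library lay above every untreated library of its line, and all 6 passages moved the same way. The log2 fold change with RSL3 was 0.70 ± 0.17 (SE) in MM1R with an edgeR FDR of 0.0290, 0.88 ± 0.17 in MM1S (FDR 0.0103), and 0.79 ± 0.12 over both lines (FDR 0.000434). Over both lines no omission of a library ended the call, where FDR ran from 0.000129 to 0.00207. In MM1R the call was lost when replicate 1, 2 or 3 of the untreated or replicate 2 or 3 of the RSL3 group was left out (log2 fold change 0.57 to 0.89, FDR 0.0100 to 0.118 over all omissions), and in MM1S without untreated replicate 1 (0.79, FDR 0.0726).

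SELENOK, an ER protein involved in palmitoylation and protein degradation, had a rise whose size depended on replicate 1 of RSL3-treated MM1S cells. Its levels were 62.6, 66.6 and 69.6 CPM in untreated MM1R cells, 111, 97.8 and 126 after RSL3, and 73.5, 86.9 and 65.4 after Fer-1 and RSL3. In MM1S cells they were 66.6, 76.1 and 75.3 untreated, 289.7, 117 and 104 after RSL3, and 80.5, 89.5 and 88.2 after Fer-1 and RSL3. RSL3 libraries lay above both other groups in each line, with replicate 1 of MM1S far above the others. The log2 fold change was 0.99 ± 0.19 over both lines (FDR 0.00237), 1.23 ± 0.27 in MM1S (FDR 0.0193) and 0.75 ± 0.27 in MM1R, which missed the threshold (FDR 0.135). Without that library the value in MM1S was 0.61 (FDR 0.0274) and that over both lines 0.68 (FDR 9.11e-05), and SELENOK was then called in MM1R as well (0.76, FDR 0.000910). Leaving out any MM1S untreated library (replicate 1, 2 or 3) ended the MM1S call, and FDR over all omissions ran from 0.00351 to 0.101.

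SELENOS, a partner of the ER-associated degradation machinery, had 103, 105 and 82.4 CPM in untreated MM1R cells, 130.4, 126 and 105 after RSL3, and 117, 103 and 85.0 after Fer-1 and RSL3. In MM1S cells it had 86.2, 102 and 80.6 CPM untreated, 157, 120.2 and 101 after RSL3, and 89.1, 118 and 89.7 after Fer-1 and RSL3. Each passage had its highest level after RSL3, although the groups overlapped or met. The log2 fold change was 0.40 ± 0.12 over both lines (FDR 0.0348), with 0.32 in MM1R and 0.49 in MM1S, neither called alone. The call over both lines was lost in 7 of 18 omissions: MM1R untreated replicates 1 and 3, MM1R RSL3 replicates 1 and 2, MM1S untreated replicates 1 and 3, and MM1S RSL3 replicate 1 (0.31 to 0.47, FDR 0.0137 to 0.0841).

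DIO2 converts the thyroid prohormone to its active form. It had 1, 0 and 0 counts in untreated MM1R cells, 33, 23 and 32 after RSL3, and 10, 10 and 9 after Fer-1 and RSL3. In MM1S cells it had 1, 0 and 0 counts untreated, 34, 5 and 6 after RSL3, and 6, 4 and 5 after Fer-1 and RSL3. The untreated libraries did not overlap with either treated group. DIO2 was kept through its treated libraries only, so this and its ratios to untreated cells are description and test nothing. The depth-scaled ratio of summed counts, RSL3 to untreated, was 88.4 in MM1R and 49.8 in MM1S. Without MM1S RSL3 replicate 1 the MM1S ratio was 17.1. The level stayed low, at most 2.23 CPM in a library.

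PSTK had 6.75, 6.26 and 6.89 CPM in untreated MM1R cells, 10.6, 9.37 and 9.57 after RSL3, and 10.7, 6.66 and 8.25 after Fer-1 and RSL3. In MM1S cells it had 3.32, 3.60 and 3.51 CPM untreated, 11.9, 6.98 and 4.64 after RSL3, and 5.91, 7.22 and 6.24 after Fer-1 and RSL3. All 6 passages were higher after RSL3. The log2 fold change was 0.87 ± 0.18 over both lines (FDR 0.00444) and 1.16 ± 0.26 in MM1S (FDR 0.0220), and it was 0.57 ± 0.25 in MM1R (FDR 0.233). Without MM1S RSL3 replicate 1 the value was 0.66 over both lines (FDR 0.00642) and 0.74 in MM1S, where the call was lost (FDR 0.123), as it was without MM1S untreated replicate 1, 2 or 3 (FDR 0.00312 to 0.123 over all omissions).

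SEPSECS had 17.3, 15.6 and 11.8 CPM in untreated MM1R cells, 25.2, 20.9 and 20.1 after RSL3, and 28.1, 24.4 and 23.7 after Fer-1 and RSL3. In MM1S cells it had 18.4, 18.2 and 16.8 CPM untreated, 20.0, 21.4 and 20.5 after RSL3, and 28.4, 22.1 and 23.1 after Fer-1 and RSL3. No treated library reached down to the untreated range of its line. The log2 fold change with RSL3 was 0.57 ± 0.14 in MM1R (FDR 0.0395), 0.21 ± 0.14 in MM1S (FDR 0.455) and 0.39 ± 0.10 over both lines (FDR 0.0166). The MM1R call was lost in 10 of 18 omissions (FDR 0.0221 to 0.190): each of the 6 untreated and RSL3 libraries of MM1R, Fer-1 and RSL3 replicate 3 of either line, and MM1S untreated replicates 2 and 3. The call over both lines was lost without MM1R RSL3 replicate 1 (0.34, FDR 0.0516).

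**Figure D2:**
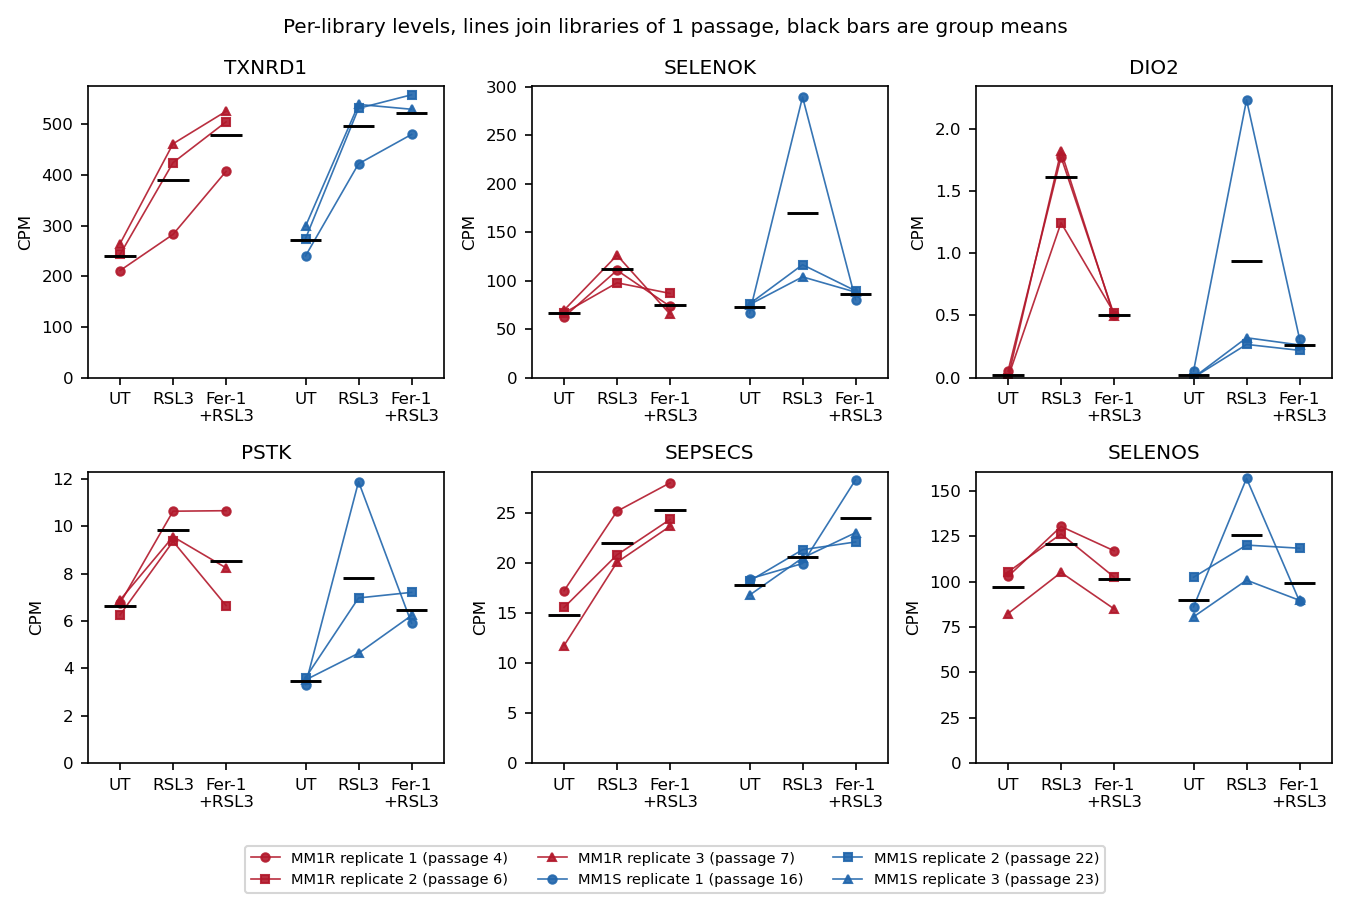
Levels in CPM of the 6 members called higher with RSL3 over both lines, by treatment, with 1 point per library; lines join the 3 libraries of a passage, MM1R is red, MM1S is blue, and black bars are group means (UT, untreated). DIO2 was kept through treated libraries only, so its call is no test. TXNRD1 and SEPSECS stay high with Fer-1, SELENOK comes down to 65.4 to 89.5 CPM, and MM1S RSL3 replicate 1 stands above the other RSL3 libraries for SELENOK (289.7 CPM) and PSTK (11.9 CPM).

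By line and without DIO2, 2 members were called in MM1R, both higher (TXNRD1 and SEPSECS), where 3.36% of all genes were called, 2% higher and 1.36% lower. In MM1S 3 members were called, all higher (TXNRD1, SELENOK and PSTK), against 3.67% of all genes, 2.5% higher and 1.17% lower. A fit of only the 6 libraries compared ended the calls of TXNRD1 (FDR 0.0636) and SEPSECS (FDR 0.107) in MM1R, and in MM1S those of TXNRD1 (FDR 0.145), SELENOK (FDR 0.252) and PSTK (FDR 0.235). With the added requirement of a log2 fold change over 1 in size, 1 member was left in MM1R (DIO2) and 3 in MM1S (DIO2, SELENOK and PSTK), against 1.2% and 1.61% of all genes. The difference in response between the lines was tested directly and 0 of the 26 members passed, as did 0% of all genes. No member had an unadjusted p under 0.05 for this difference, and DESeq2 also called 0. The difference in log2 fold change, MM1R minus MM1S, was -0.17 for TXNRD1 (95% interval -0.67 to 0.32) and -0.47 for SELENOK (-1.26 to 0.32).

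When the passage was entered as a block, more members passed over both lines, 11 in place of 6 (DIO2 included in both), against 30.4% of all genes. SELENOP, the secreted plasma selenium carrier (0.50, FDR 0.0173), and SELENOW, a small selenoprotein of the cytosol (0.44, FDR 0.0160), were then called higher. SEPHS1 (-0.24, FDR 0.0219), SEPHS2 (-0.24, FDR 0.0406) and TRIT1 (-0.22, FDR 0.0346) were called lower. SEPHS1, SEPHS2, TRIT1 and SELENON had lower values after RSL3 in all 6 passages, and SELENOW was higher in 6 and SELENOP in 5. The share of all genes that moved the same way in all 6 passages was not counted for any comparison. Such agreement is therefore description only, here and wherever it is given. Within single lines the block added SELENOP in MM1R (0.79, FDR 0.0155), and SELENOS (0.49, FDR 0.0221) and SELENOW (0.57, FDR 0.0483) in MM1S. The share of all genes called in these blocked single-line comparisons was not counted, so these calls have no background beside them.

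GPX4 itself did not pass the test in any RSL3 comparison. It had 257, 288 and 331 CPM in untreated MM1R cells, 271, 271 and 268 after RSL3, and 252, 201 and 242 after Fer-1 and RSL3. In MM1S cells it had 199, 235 and 209 CPM untreated, 230.1, 221 and 229.9 after RSL3, and 171, 245 and 216 after Fer-1 and RSL3. The RSL3 values lay within or beside the untreated range in both lines. Its log2 fold change with RSL3 was -0.11 in MM1R (95% interval -0.39 to 0.16) and 0.08 in MM1S (-0.19 to 0.36).

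The other peroxidases and reductases also stayed short of the threshold. GPX1 changed by -0.28 over both lines (95% interval -1.90 to 1.34), the mitochondrial reductase TXNRD2 by 0.14 and the testis-enriched TXNRD3 by 0.03, all as log2 fold changes. The methionine sulfoxide reductase MSRB1 was at 0.20, the phospholipid synthesis enzyme SELENOI at 0.26, and SELENOF, SELENOH, SELENOO and SELENOT lay between -0.08 and 0.07. SELENON was at -0.16, LRP8 at -0.12, EEFSEC at -0.11 and SELENOM, a redox protein of the ER, at 0.22.

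**Figure D3:**
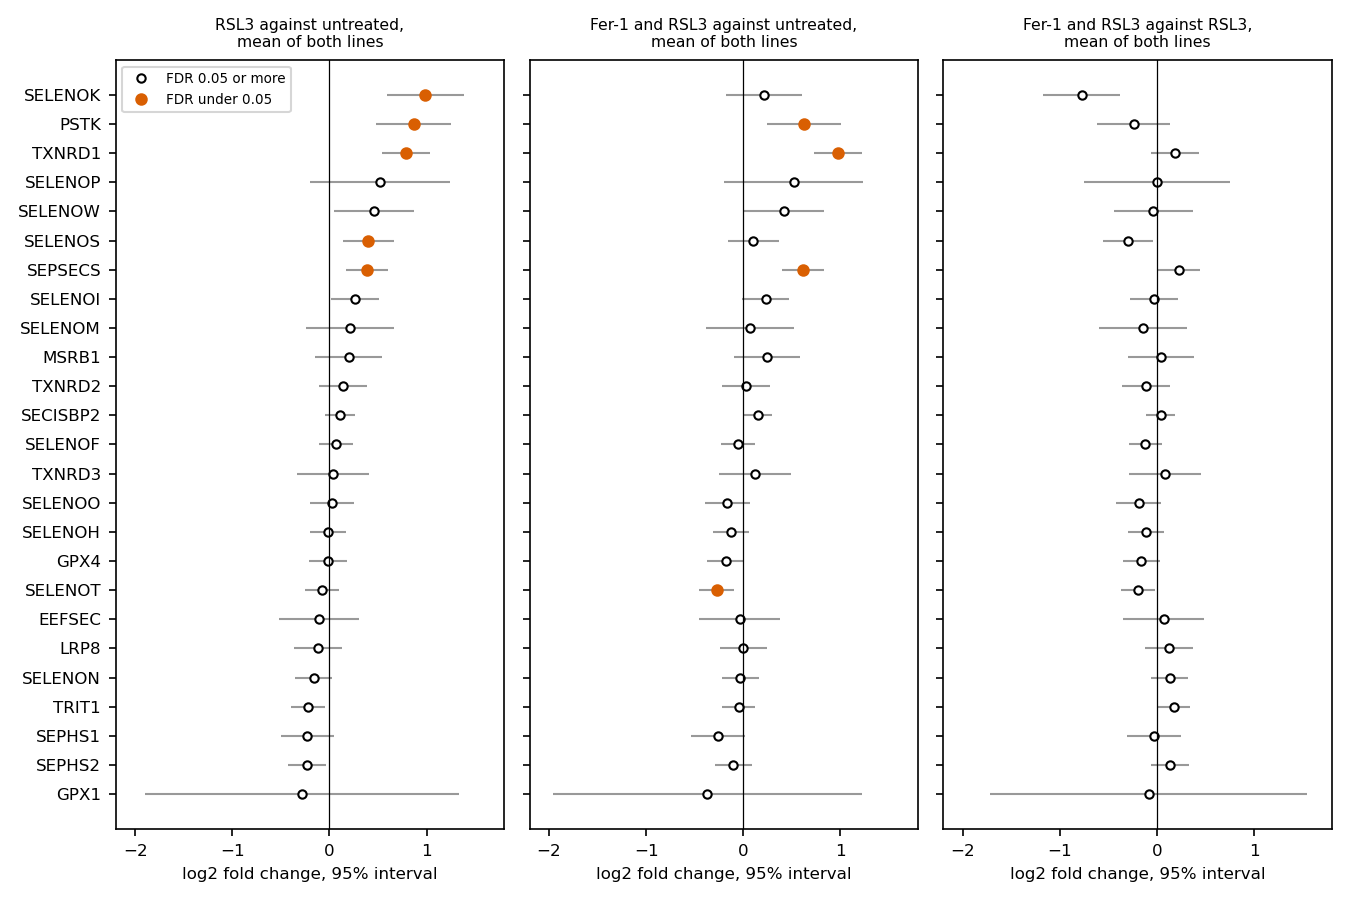
Log2 fold change of 25 members in 3 comparisons averaged over the lines (horizontal axis), with 95% intervals as lines and orange points for FDR under 0.05; members are ordered by the RSL3 value, and DIO2 (5.64 with RSL3) is left out for its scale. SELENOK moves from 0.99 with RSL3 to 0.21 with Fer-1 and RSL3 against untreated cells, whereas TXNRD1 moves from 0.79 to 0.97.

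The Fer-1 and RSL3 groups were compared with untreated cells to see which members still differed with Fer-1 given ahead of RSL3. These comparisons share their untreated libraries with those above, so the values stand side by side and do not repeat each other independently. The libraries hold no measure of lipid peroxidation. Cells given Fer-1 alone were not analysed here, so an effect of Fer-1 itself cannot be told apart from one of RSL3. Over both lines and without DIO2, 3 members were higher (TXNRD1, SEPSECS and PSTK) and 1 lower (SELENOT), where 19% of all genes were called, 10.5% higher and 8.47% lower. The median log2 fold change of the 25 members was 0.02 and that of all genes 0.00.

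TXNRD1 had a log2 fold change of 1.00 ± 0.17 in MM1R (FDR 0.00222), 0.95 ± 0.17 in MM1S (FDR 0.00370) and 0.97 ± 0.12 over both lines (FDR 4.47e-05). SEPSECS had 0.77 ± 0.14 in MM1R (FDR 0.00429), 0.46 ± 0.14 in MM1S (FDR 0.0770) and 0.62 ± 0.10 over both lines (FDR 0.000577). Without the MM1S-like library, the MM1R values were 0.96 for TXNRD1 (FDR 0.0106) and 0.80 for SEPSECS (FDR 0.0120). For DIO2 the ratio of summed counts to untreated cells was 27.8 in MM1R and 15.5 in MM1S, as description only.

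PSTK was at 0.63 ± 0.18 over both lines (FDR 0.0226), and that call was lost without MM1R untreated replicate 2, MM1R Fer-1 and RSL3 replicate 1 or MM1S Fer-1 and RSL3 replicate 2 (FDR 0.00308 to 0.0665 over all omissions). SELENOT had 438, 486 and 473 CPM in untreated MM1R cells and 363, 448 and 359.8 after Fer-1 and RSL3, and in MM1S 566, 417 and 551 CPM untreated and 389.8, 426 and 438 after Fer-1 and RSL3. It was lower in 5 of 6 passages, and the groups overlapped in both lines. SELENOT fell by 0.27 on the log2 scale over both lines (FDR 0.0318), and lost the call in 7 of 18 omissions (-0.34 to -0.24, FDR 0.00782 to 0.0838). These were the omissions of MM1R untreated replicates 2 and 3, MM1R Fer-1 and RSL3 replicates 1 and 3, MM1S untreated replicates 1 and 3, and MM1S Fer-1 and RSL3 replicate 1. Without the MM1S-like library SELENOT was at -0.33 (FDR 0.0147).

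In MM1R cells 2 members other than DIO2 were called (TXNRD1 and SEPSECS) against 9.22% of all genes, and in MM1S cells 1 (TXNRD1) against 4.61%. PSTK was also called in MM1S when MM1S RSL3 replicate 1 was left out (0.90, FDR 0.00966). When DIO2 was counted and passage entered the model as a block, 5 members were called in MM1R, against 22.2% of all genes, and 5 in MM1S, against 14.7%. The added members were GPX1 (-0.61, FDR 0.0419) and GPX4 (-0.33, FDR 0.0465), both lower, in MM1R, and PSTK, SEPSECS, DIO2 and SELENOW, all higher, in MM1S. In the MM1S-like library GPX1 had 36.8 CPM and GPX4 201, the lowest of their group, and the blocked fit without that library was not run. Over both lines the block gave 9 members against 33.3% of all genes, adding SELENOP, SELENOW and SECISBP2 as higher and SEPHS1 as lower.

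Fer-1 and RSL3 against RSL3 alone asked which responses were smaller with the radical trap. It shares its RSL3 libraries with RSL3 against untreated cells, so a high RSL3 library enlarges both the rise and the drop. A drop in a member picked as higher with RSL3 is therefore not independent support. No member passed the edgeR test in MM1R or in MM1S, where 0% of all genes did in each line, and 0 passed over both lines, where 0.119% of all genes did. Unadjusted p was under 0.05 for 3 members in MM1R, 2 in MM1S and 5 over both lines, and DESeq2 called 0, 0 and 1 (SELENOK). SELENOK had the value of -0.77 ± 0.19 over both lines (FDR 0.0962), with -0.57 in MM1R and -0.98 in MM1S, and it was lower with Fer-1 in all 6 passages. DIO2 was lower with Fer-1 in all 6 passages too, with 3.18-fold more summed counts in RSL3 than in Fer-1 and RSL3 in MM1R (95% exact interval 2.07 to 5.03) and 3.22-fold more in MM1S (1.76 to 6.23). Without MM1S RSL3 replicate 1 the MM1S ratio was 1.11 (0.460 to 2.58), an interval that spans no difference. These intervals cover counting error only. The FDR of DIO2 over both lines was 0.134, and 0.0267 with the passage as a block (-1.61). It was then the 1 member called, against 2.37% of all genes. DIO2 passed the filter on low counts mostly through RSL3 libraries, so this call is not independent support. Without MM1S RSL3 replicate 1, SELENOK was called in MM1R (-0.58, FDR 0.0380) and over both lines (-0.47, FDR 0.0292). SELENOS (-0.30, FDR 0.326), SELENOT (-0.20, FDR 0.344) and SELENOO (-0.19, FDR 0.492) were also lower with Fer-1 in all 6 passages, and SEPSECS (0.23, FDR 0.360) was higher in all 6. TXNRD1 was at 0.18 (95% interval -0.06 to 0.43), higher with Fer-1 in 5 of 6 passages.

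The lines were compared first in untreated cells, where 4 members differed against 10.5% of all genes: GPX1, GPX4 and PSTK were higher in MM1R and SELENON was lower. SELENOW was also called higher in MM1R when MM1S RSL3 replicate 1 was left out (0.74, FDR 0.0412). SELENON, a calcium-linked selenoprotein of the ER membrane, had 25.5, 24.2 and 28.0 CPM in untreated MM1R cells and 43.3, 42.4 and 39.2 in MM1S, without overlap. Its log2 fold change was -0.69 ± 0.13 (FDR 0.00266), and no omission of a library ended the call (FDR 0.000271 to 0.0198). The MM1S level stayed between 38.4 and 43.3 CPM in all 9 libraries of the line and the MM1R level between 20.5 and 28.0 in 8, with 31.2 in the MM1S-like library.

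GPX1 had 73.0, 92.3 and 125 CPM in untreated MM1R cells, 74.9, 92.9 and 100.2 after RSL3, and 68.0, 36.8 and 87.5 after Fer-1 and RSL3. In MM1S it had 16.9, 1.04 and 0.552 CPM untreated, 12.5, 0.693 and 0.907 after RSL3, and 15.3, 0.820 and 0.524 after Fer-1 and RSL3. Each MM1S library of passage 16 thus had at least 12.5 CPM and each of passages 22 and 23 at most 1.04, so the 3 libraries of a passage lay together whatever the treatment. The 3 libraries of passage 16 also stood at 2.91% to 12.5% of the way from the MM1S to the MM1R level over genes that marked MM1R. The other 6 MM1S libraries were at -0.0326% or less. GPX1 itself met the rule for these marker genes and was not left out, and the part of this in the GPX1 level was not tested. The untreated difference was 3.97 ± 1.15 on the log2 scale (FDR 0.0365). It was 6.91 without MM1S untreated replicate 1, and the call was lost without replicate 2 or 3 of either untreated group (FDR 0.00631 to 0.140 over all omissions). An unnamed annotated gene shares 63.6% of the GPX1 transcript on the same strand, and the count table has no row under its identifier. Whether its reads were counted to GPX1 cannot be told, because the annotation used for counting is not given in the sources used here.

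Passage 16 was also compared with passages 22 and 23 as a description of the MM1S cultures. Its 3 libraries lay outside the range of the other 6 for 5 of the 26 members, GPX1, TXNRD2 and SELENOP above and EEFSEC and LRP8 below, against 18.1% of all genes. The share of the members was therefore near that of all genes.

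GPX4 was 0.45 ± 0.13 higher in untreated MM1R cells on the log2 scale (FDR 0.0361), a call lost without MM1R untreated replicate 2 or 3, MM1R RSL3 replicate 2, or any MM1S untreated library (FDR 0.0196 to 0.168 over all omissions). PSTK was 0.93 ± 0.26 higher (FDR 0.0310), a call lost without any 1 of the 6 untreated libraries (FDR 0.00481 to 0.0947 over all omissions). Neither gene's untreated ranges overlapped between the lines, at 257 to 331 against 199 to 235 CPM for GPX4 and 6.26 to 6.89 against 3.32 to 3.60 CPM for PSTK.

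Averaged over the 3 treatments, 9 members differed between the lines, 6 higher and 3 lower in MM1R, against 29.4% of all genes. The higher genes were GPX1 (3.93), SELENOP (0.88), PSTK (0.56), SELENOW (0.51), TXNRD2 (0.30) and GPX4 (0.28), and the lower ones were SELENON (-0.74), the receptor LRP8 (-0.43) and SELENOF (-0.21), all as log2 fold changes. The 9 libraries of a line come from 3 passages, so the counts of each passage were also summed and compared 3 against 3. Then 8.34% of the 15618 genes tested were called and SELENON was the only member left (-0.73, FDR 0.00376). The FDR rose to 0.0602 for GPX1, 0.0619 for LRP8, 0.0960 for PSTK, 0.112 for GPX4 and between 0.168 and 0.261 for TXNRD2, SELENOW, SELENOP and SELENOF. Of these, TXNRD2 and SELENOF each lost the call over the libraries in 8 of 18 omissions (FDR 0.00493 to 0.0636 and 0.0139 to 0.0839 over all omissions), SELENOP without MM1S Fer-1 and RSL3 replicate 2 (FDR 0.0501), and SELENOW without MM1R untreated replicate 3 (FDR 0.0535). For TXNRD2 these were MM1R untreated replicate 3, MM1R RSL3 replicates 1 and 2, MM1R Fer-1 and RSL3 replicate 1, MM1S untreated replicates 2 and 3, and MM1S Fer-1 and RSL3 replicates 2 and 3. For SELENOF they were MM1R untreated replicate 1, MM1R RSL3 replicates 1 and 3, MM1R Fer-1 and RSL3 replicates 1 and 3, MM1S untreated replicate 3, MM1S RSL3 replicate 1, and MM1S Fer-1 and RSL3 replicate 3. Without the MM1S-like library SELENON was at -0.80, LRP8 at -0.50 and GPX1 at 4.02, and all 9 calls held. Without MM1S RSL3 replicate 1, TXNRD1 (-0.25, FDR 0.0496) and TRIT1 (-0.14, FDR 0.0412) were called lower in MM1R as well, and SELENOF was not called.

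**Figure D4:**
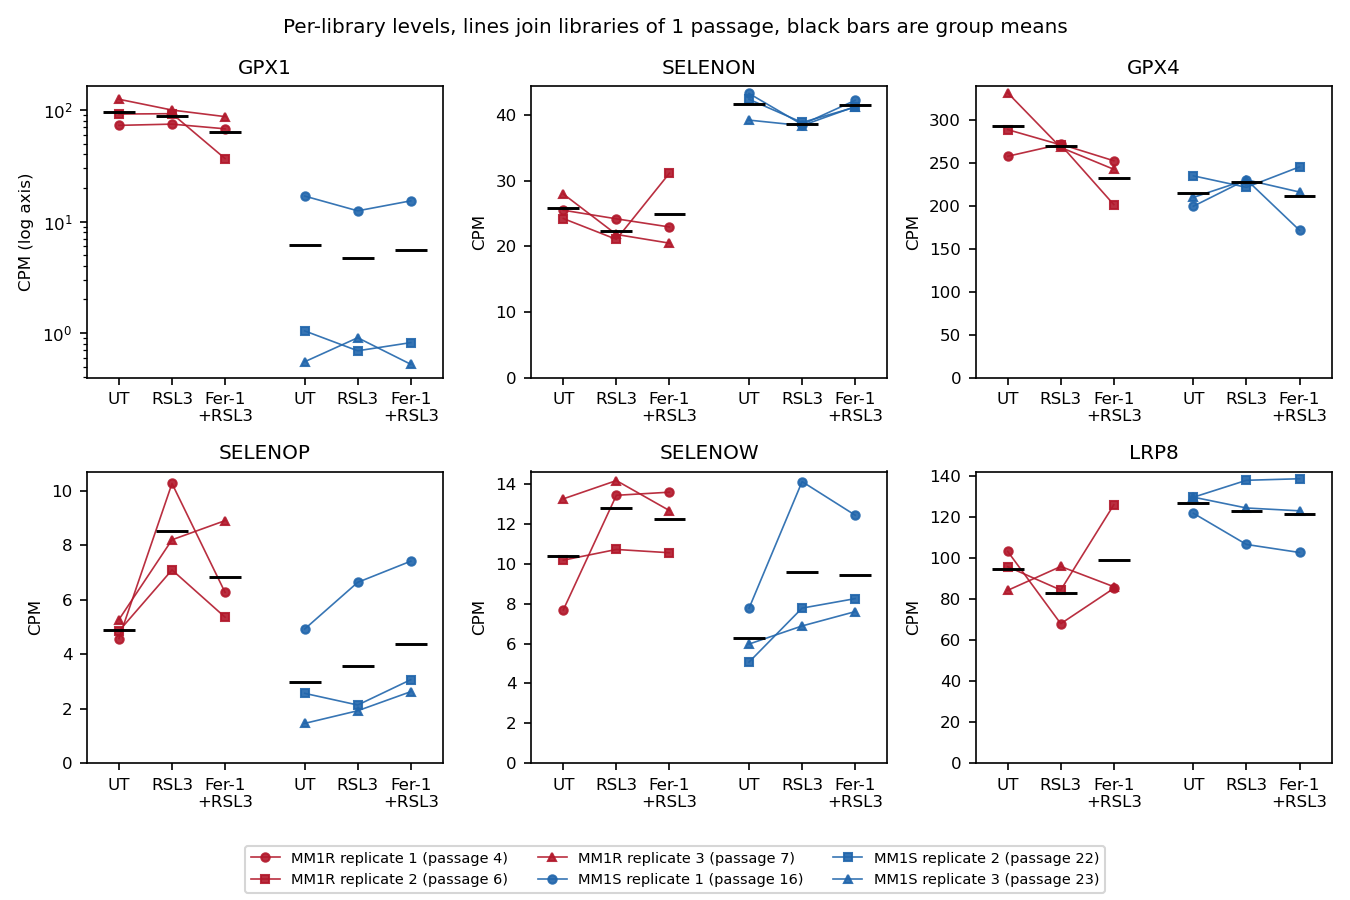
Levels in CPM of 6 members that differed between the lines over the 3 treatments, by treatment, with 1 point per library (GPX1 on a log axis); lines join the 3 libraries of a passage, MM1R is red, MM1S is blue, and black bars are group means. SELENON is at 38.4 CPM or more in every MM1S library and at 31.2 or less in every MM1R library, and GPX1 is at 12.5 to 16.9 CPM in MM1S passage 16 and at 1.04 or less in passages 22 and 23.

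SELENOW had 7.69, 10.2 and 13.3 CPM in untreated MM1R cells and 7.77, 5.07 and 5.97 in MM1S, with 10.6 to 14.2 in the treated libraries of MM1R and 6.88 to 14.1 in those of MM1S. TXNRD2 ranged from 20.8 to 27.7 CPM in MM1R and from 16.5 to 24.7 in MM1S, and SELENOF from 165 to 209 CPM in MM1R and from 181 to 248 in MM1S. The lines overlapped for all 3 genes.

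SELENOP and LRP8 are the carrier and its receptor, and neither was called between the lines on passage sums. SELENOP had 4.57 to 10.3 CPM in the 9 MM1R libraries, against 4.92 to 7.42 in passage 16 and 1.46 to 3.06 in passages 22 and 23 of MM1S. LRP8 had 67.9 to 103 CPM in 8 MM1R libraries, 126 in the MM1S-like library, and 103 to 139 in MM1S. The antisense gene CCDC152 shares 70.6% of the SELENOP transcript and had 36 counts in all, whereas RUVBL1, which overlaps 15.6% of EEFSEC on the opposite strand, had 30913. Whether the counting used strand is not given in the sources used here, so reads of the 2 genes cannot be told apart in the 20 to 44 counts that EEFSEC had in a library.

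The position of the selenocysteine codon was set beside the RSL3 values. A stop codon more than 50 bases before the last exon junction is the usual signal for nonsense-mediated decay, and a UGA that is read as a stop can act as such a signal. In 10 of the 19 kept selenoprotein genes the first selenocysteine codon lay more than 50 bases before that junction (GPX1, GPX4, TXNRD2, SELENOF, SELENOM, SELENON, SELENOT, SELENOH, SELENOP and SELENOW), and 0 of these were called with RSL3 over both lines. In the other 9 the codon lay nearer, after the junction, or in a gene of 1 exon (TXNRD1, TXNRD3, DIO2, SELENOI, SELENOK, SELENOS, MSRB1, SELENOO and SEPHS2), and 3 of the 8 other than DIO2 were called higher (TXNRD1, SELENOK and SELENOS). Of all genes tested, 15.5% were called in this comparison, 8.7% higher and 6.81% lower, and counts in classes this small do not set them apart. In the first group the median log2 fold change with RSL3 was -0.02 in MM1R and 0.09 in MM1S. No median is set against these, because the second group holds DIO2, which was kept through treated libraries only. This is a description of 19 genes with no test, and the blocked fit called SELENOP and SELENOW of the first group higher and SEPHS2 of the second lower.

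**Figure D5:**
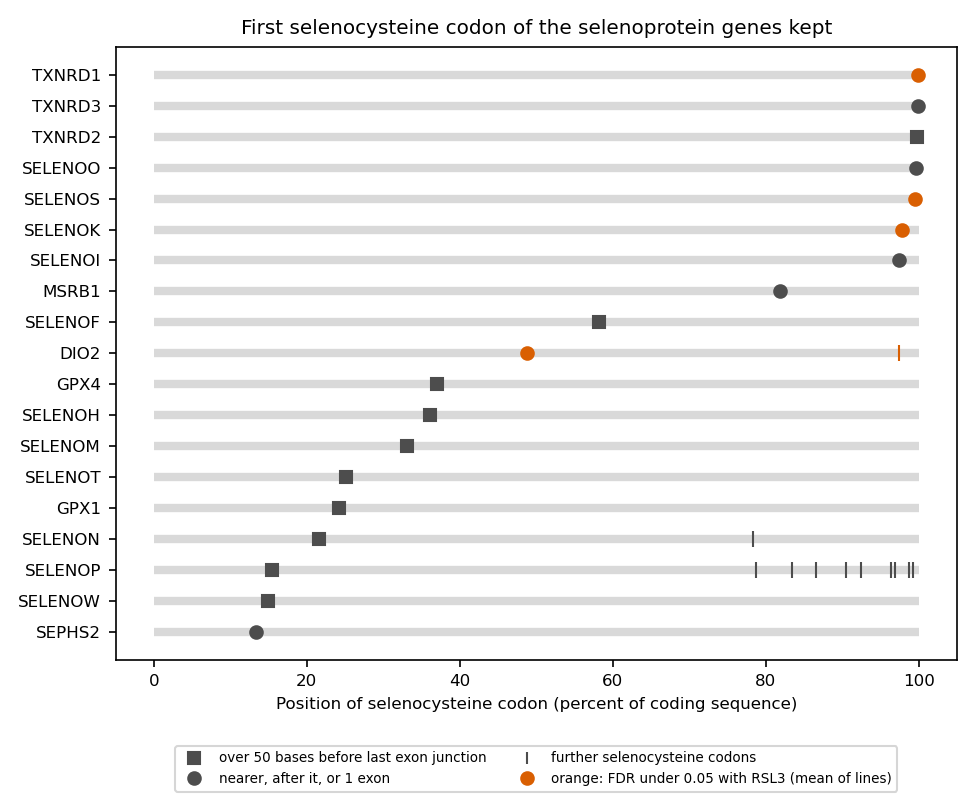
Position of the selenocysteine codons of the 19 kept selenoprotein genes in percent of the coding sequence (horizontal axis), with the first codon as a square when it is more than 50 bases before the last exon junction and as a circle otherwise, and further codons as ticks. Orange marks the genes called higher with RSL3 over both lines (DIO2, TXNRD1, SELENOK and SELENOS), which are all circles, and DIO2 was kept through treated libraries only.

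Promoters were read for the 22 kept members that have one in the RefSeq table (GRCh38.p14), over the 250 bases before the start site on both strands. The antioxidant response element TGACNNNGC, the motif bound by NRF2, was found in 5 of the 22 (TXNRD1, SELENOK, SELENON, SELENOP and SECISBP2) and in 10.9% of the 35116 promoters of the table. A member counted when any of its annotated starts had a match, whereas the share over the table counts single promoters. The 2 are therefore unlike in unit, here and for the motifs below. The cyclic AMP response element TGACGTCA was found in DIO2 and in 1.65% of all promoters. A match describes the letters in the window and does not show binding. TXNRD1 has 2 annotated starts with such a match, and the 150 bases before each are shown with the DIO2 window because TXNRD1 was called with RSL3 in each line and DIO2 had 1 count in the untreated libraries of each line; capitals mark the match, and all are written 5′ to 3′ on the gene's strand.
TXNRD1, chr12:104215629-104215778: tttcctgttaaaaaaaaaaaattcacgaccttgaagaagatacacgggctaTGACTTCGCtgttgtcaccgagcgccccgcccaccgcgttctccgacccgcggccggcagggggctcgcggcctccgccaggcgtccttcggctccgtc
TXNRD1, chr12:104286882-104287031: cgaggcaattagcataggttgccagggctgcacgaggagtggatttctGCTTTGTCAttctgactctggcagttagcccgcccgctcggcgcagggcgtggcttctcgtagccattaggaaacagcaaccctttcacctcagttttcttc
DIO2, chr14:80212179-80212328: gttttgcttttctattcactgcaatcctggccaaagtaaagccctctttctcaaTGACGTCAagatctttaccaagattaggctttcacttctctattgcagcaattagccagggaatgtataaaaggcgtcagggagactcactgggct
The metal response element TGCACNC was found in EEFSEC, SELENOT and TXNRD2 (9.87% of all promoters), the ATF4 element TGATGNAA in SEPHS1 (3.14%), the AP-1 site TGANTCA in SELENOT (6.57%), and the unfolded protein response element TGACGTGG in none (0.612%).

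A list of 24 related genes was read beside the members: homologues with cysteine in place of selenocysteine, other tRNA and SECIS-binding factors, selenium handling and nonsense-mediated decay. Of these 21 were tested. With RSL3 over both lines 2 of the 21 rose and none fell, where 8.7% of all genes were called higher, so the count is near the background. CTH, the transsulfuration enzyme that makes cysteine from cystathionine, rose by 1.68 ± 0.26 on the log2 scale (FDR 0.000622), from 3.48 to 4.78 CPM in untreated MM1R cells to 10.1 to 15.7, and from 3.26 to 3.81 in MM1S to 6.24 to 21.8, where the highest value was MM1S RSL3 replicate 1 and the other 2 libraries had 6.66 CPM or less. SECISBP2L, a paralogue of SECISBP2, rose by 0.65 ± 0.11 (FDR 0.000866), where SECISBP2 itself was at 0.11. SECISBP2L was called in MM1R alone (0.89, FDR 0.00616), and CTH in each line (1.69 and 1.68).

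Both stayed higher over both lines with Fer-1 and RSL3, CTH at 1.56 (FDR 0.000704) and SECISBP2L at 0.62 (FDR 0.000813), and none of the 21 genes was called between Fer-1 and RSL3 and RSL3 alone (2 with an unadjusted p under 0.05 over both lines by edgeR). Between the untreated lines 3 of the 21 were called, where 10.5% of all genes were, and all 3 were higher in MM1R: the ER peroxidase GPX7 (3.13, FDR 0.0304) and the methionine sulfoxide reductases MSRB2 (0.57, FDR 0.0324) and MSRB3 (0.60, FDR 0.0146). Untreated GPX7 levels were 13.1 ± 1.59 CPM in MM1R and 1.50 ± 1.93 in MM1S (SD, n = 3), where the highest MM1S library had 3.73 CPM.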

How the data were processed

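RNA of 18 cultures was sequenced as paired reads. Per the submitters' processing notes and the study's methods, reads were checked with FastQC 0.11.5 and aligned to hg19 with STAR 2.7.3a; the counter, its annotation and its use of strand are not given in the sources used here. The authors deposited raw counts per gene, which were used as deposited; their normalized table was not used. The 33 members and the related genes were chosen with earlier results of these data known.

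Counts were tested with edgeR 4.0.16 in R 4.3.3: filterByExpr (minimum count 10) kept 14281 genes and 99.9% of counts, TMM factors were computed, and 6 group means were fitted over all 18 libraries with the quasi-likelihood test. P-values were adjusted by Benjamini-Hochberg over all genes and called at FDR under 0.05. Total counts per library ran from 17635438 to 19368343. Replicates differed by more than sampling noise (chi-square per degree of freedom 7.66 to 159), so none was merged for the edgeR tests. The DIO2 ratios do sum the replicates of a group, and their intervals leave out this spread between replicates. Within-passage log2 ratios used 0.1 CPM as pseudocount. Alternatives were DESeq2 1.42.0, RLE factors, other count filters, the passage as a block, only the groups compared, a fold threshold and each library left out; sums per passage, counts of calls without DIO2 and the DIO2 ratio without 1 library were added after the data were seen.

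The labels give each library's passage, which pairs the treatments of a line. Deviations from group means correlated with a median of 0.282 between libraries of the same MM1R passage (0.0616 to 0.575, 9 pairs) and 0.437 for MM1S (0.236 to 0.719, 9 pairs), against -0.127 and -0.342 between passages (18 pairs each). Every kept member was named, with values per library for GPX4 and for the members called, and by range where 9 libraries of a line were compared. Sequences were read from GENCODE on hg19 and from the RefSeq promoter table. The steps were tested on simulated data.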

Additional observations from a re-analysis of the deposited data

Results flagged for a closer look

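For 2 members every passage of a line moved one way with Fer-1 and RSL3 against untreated cells and every passage of the other line the opposite way, and the difference between the lines was not tested. The same pattern was seen in 2.23% of all 14281 genes tested. For RSL3 against untreated cells it was seen in 0 of the 26 members and 1.88% of all genes. For Fer-1 and RSL3 against RSL3 it was seen in 0 members and 1.54% of all genes. EEFSEC had a mean within-passage log2 ratio of -0.31 (-0.313) in MM1R and 0.22 (0.219) in MM1S. TRIT1 had 0.04 (0.0435) in MM1R and -0.14 (-0.138) in MM1S. EEFSEC had only 20 to 44 counts in a library, and no MM1R passage of TRIT1 was above 0.0592.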

How the results depend on the processing

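Counts of members called moved by more than 1.5 times under these settings. DESeq2 gave 1 for Fer-1 and RSL3 against RSL3 over both lines and 3 for Fer-1 and RSL3 against untreated MM1S cells. No filter gave 1 in MM1R, 1 in MM1S and 2 over both lines for Fer-1 and RSL3 against RSL3, and 3 against untreated MM1S cells. With the replicate block by passage the counts were 11 for RSL3 over both lines, 1 for Fer-1 and RSL3 against RSL3 over both lines, and 5 in MM1R, 5 in MM1S and 9 over both lines against untreated cells. The block ended no member call of these comparisons. No paired analysis was possible because the lines share no passage, for the comparisons between lines. Only the groups compared gave 0 for RSL3 in MM1S and 2 for Fer-1 and RSL3 against untreated MM1S cells. The added fold threshold gave 1 for RSL3 in MM1R, 1 over both lines, 0 and 1 for Fer-1 and RSL3 against untreated cells in MM1S and over both lines, and 1 in each comparison of the lines. Passage sums left 1. The causes were not tested.

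With 1 library left out, members called ranged from 1 to 4 for RSL3 in MM1R, 0 to 5 in MM1S, 4 to 6 over both lines and 0 to 0 for the difference between lines. They ranged from 0 to 1 in MM1R, 0 to 0 in MM1S and 0 to 2 over both lines for Fer-1 and RSL3 against RSL3, and from 2 to 3, 1 to 3 and 3 to 5 against untreated cells. The lines differed in 1 to 5 members untreated and 7 to 10 over the treatments. Of the single-gene values with 1 library left out, 620 kept their side of the threshold, 81 lost the call and 1 reversed, and under the other alternatives 187 kept it and 16 lost the call. The reversed value was GPX4, Fer-1 and RSL3 against RSL3 in MM1S, which ranged from -0.23 without MM1S Fer-1 and RSL3 replicate 2 to 0.022 without replicate 1. The ratios of DIO2 rest on 0 to 34 counts in a library, and counting intervals are given for RSL3 against Fer-1 and RSL3 only. The counts of members called here include DIO2.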
